A study of Mus musculus with 10 samples.

Results

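The homeobox and T-box genes that lay out the skeleton were followed in the open chromatin of MC3T3-E1 cells, a mouse osteoblast line derived from newborn calvaria, the roof of the skull. The set was every window in the deposited peak lists whose nearest gene is a Hox, Meis, Pbx, Prrx, Alx, Tbx, Pitx, Lhx, Pax or Emx gene or a gene of the sine oculis homeobox family (Six2 and its relatives). That gave 309 of 97788 windows, at 32 of the 92 genes of these families in RefSeq. The assay was ATAC-seq: a transposase inserts sequencing adapters where DNA is open, so tags pile up there. The 4 groups held 2 libraries each. One received TNFa, an inflammatory cytokine, at 10 ng/ml, and one received BMP4, a bone-forming growth factor, at 10 ng/ml. One received both factors at these doses, and one was untreated. A further 2 libraries of sonicated DNA of the same line served as background. All groups shared a short period in reduced serum before treatment. How long TNFa was present is not clear, since the sample labels give 3 h while the protocol gives 30 min before the 3 h with BMP4. Titles of the TNFa libraries carry p65 for a reason that the labels do not state. Every library has the same batch label, and separate cultures are not stated, so the replicate spread behind each p-value may be purely technical. The column headers give the background libraries another prefix than the ATAC libraries, without saying what the prefix marks.

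Homeobox and T-box genes encode transcription factors that give cells their place in the embryo. Hox genes, arranged in clusters, set position along the trunk and limbs, and Meis and Pbx proteins bind DNA beside them as cofactors. In vertebrates the neural crest that builds the anterior head skeleton does not express Hox genes. There genes of the Alx, Prrx, Pax, Pitx, Lhx and Tbx families and Six2 act in the mesenchyme of the face, jaw, teeth and skull vault.

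Total tags (aligned reads, in M) were 16.5 and 19.7 with TNFa, 26 and 27.9 with BMP4, 21.8 and 18.8 with both factors, and 30.1 and 29.1 in untreated cells. Cells given TNFa, with or without BMP4, thus had the shallower libraries. A window had to be found on pooled replicates to be listed, so presence in a list is not replicated, and a missing window can also reflect depth. Libraries of different groups could be closer than replicates. Across the tested windows, which are not independent, the log2 values of BMP4 replicate 2 and untreated replicate 2 had r = 0.953, against r = 0.393 between the BMP4 replicates and 0.59 between the untreated ones. The labelled cell type was checked against marker genes. Of 14 osteoblast genes 12 had a window in at least 1 list, among them Runx2, Sp7 and Col1a1, while Alpl and Msx2 had none. By the same measure 9 of 10 chondrocyte, 5 of 6 epithelial, 4 of 6 endothelial, 3 of 6 neural, 3 of 7 adipocyte and 2 of 8 haematopoietic genes had a window, so it did not set the osteoblast genes apart from all other types. No window was assigned to any of 6 muscle genes, and none lay within 1000 bp of the start of any of 8 haematopoietic genes. In the untreated list a window within 1000 bp of the start was found at 6 of 14 osteoblast, 3 of 10 chondrocyte, 1 of 7 adipocyte, 1 of 6 neural, 0 of 6 endothelial and 0 of 6 epithelial genes.

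The sequences of 4 patterning promoters are shown because the window over the start region was found in every list for Prrx1 and Tbx18, shifted between lists for Six2, and was missing from both lists with TNFa for Pbx4. Each runs 5′ to 3′ from 250 bases before the start site to 50 after it, from RefSeq (GRCm38.p6, the build named mm10 in the lists), and capitals mark the part inside the window called in untreated cells. Six2 is on the minus strand at chr17:85688205-85688504, Prrx1 on the minus strand at chr1:163313601-163313900, Tbx18 on the minus strand at chr9:87731211-87731510 and Pbx4 on the plus strand at chr8:69832374-69832673. The whole window of 125 bp fell inside the promoter at Six2, Tbx18 and Pbx4, and 79 bp of it at Prrx1.
Six2: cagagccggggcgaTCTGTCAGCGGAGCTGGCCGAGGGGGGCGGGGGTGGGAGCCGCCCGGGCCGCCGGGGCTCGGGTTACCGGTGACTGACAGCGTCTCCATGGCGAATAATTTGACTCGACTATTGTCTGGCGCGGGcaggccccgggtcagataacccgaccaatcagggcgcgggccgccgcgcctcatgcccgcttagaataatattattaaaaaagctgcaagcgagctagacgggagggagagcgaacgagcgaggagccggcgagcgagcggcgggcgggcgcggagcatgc
Prrx1: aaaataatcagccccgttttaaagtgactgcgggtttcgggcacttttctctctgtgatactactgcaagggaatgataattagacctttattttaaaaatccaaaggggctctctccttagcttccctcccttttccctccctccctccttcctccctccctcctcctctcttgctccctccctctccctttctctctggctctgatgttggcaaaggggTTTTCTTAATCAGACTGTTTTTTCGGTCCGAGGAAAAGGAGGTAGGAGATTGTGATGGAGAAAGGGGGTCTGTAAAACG
Tbx18: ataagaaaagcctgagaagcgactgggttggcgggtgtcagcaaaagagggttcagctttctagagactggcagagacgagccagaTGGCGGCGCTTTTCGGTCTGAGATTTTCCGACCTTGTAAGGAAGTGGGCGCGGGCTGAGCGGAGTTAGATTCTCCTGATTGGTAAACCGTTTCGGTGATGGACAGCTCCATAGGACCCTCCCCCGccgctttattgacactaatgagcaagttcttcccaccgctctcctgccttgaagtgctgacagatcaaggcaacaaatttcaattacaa
Pbx4: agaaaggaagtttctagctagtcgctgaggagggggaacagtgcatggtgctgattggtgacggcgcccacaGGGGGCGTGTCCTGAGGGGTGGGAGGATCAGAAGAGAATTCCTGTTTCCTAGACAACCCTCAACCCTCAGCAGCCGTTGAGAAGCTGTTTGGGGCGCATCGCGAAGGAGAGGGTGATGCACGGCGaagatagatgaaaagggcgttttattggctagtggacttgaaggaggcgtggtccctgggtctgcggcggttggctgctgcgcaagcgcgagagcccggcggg
The window was 68.8% G or C at Six2, 60% at Pbx4 and 56.8% at Tbx18, and the 79 bp at Prrx1 were 43% G or C. The Six2 window called in untreated cells holds TGACAG and its reverse complement CTGTCA, the core recognised by Meis proteins, once each. The TGACAG lies outside the shifted windows called in the treated groups. Of the 60 patterning genes in the RefSeq promoter table, 12 (20%) carried this core on either strand, beside 19.4% of all 27025 promoters of the same length. TAATTA, the homeodomain palindrome, occurred in the Prrx1 promoter outside the window. It was in 5 of 60 patterning promoters (8.33%) and in 5.4% of all. These matches describe the letters only.

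Patterning genes outside the Hox clusters had a window about as often as protein-coding genes did, and most Hox genes had none. Of 53 genes of the other families, 26 (49.1%) had a window in at least 1 list, close to the 50.6% of all 21896 protein-coding genes. Of 39 Hox genes 6 had one (15.4%), namely Hoxa3, Hoxa10, Hoxb1, Hoxb8, Hoxc6 and Hoxc13. No window was assigned to a Hoxd gene or to Emx1 or Emx2, homeobox genes best known from the forebrain. Within 1000 bp of the start site, a window was found in all 4 lists at 14 patterning genes (15.2%), against 26.3% of protein-coding genes. They were 13 of the 53 genes outside the Hox clusters (24.5%) and 1 of the 39 Hox genes (2.56%), Hoxa10. The lower pooled share thus lay mostly with the Hox genes. These shares are descriptions, and a gene without a listed window may still hold accessibility below the authors' threshold.

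The 4 lists held similar numbers of patterning windows. There were 70 with TNFa (0.301% of the list), 82 with BMP4 (0.334%), 72 with both (0.303%) and 85 in untreated cells (0.324%). They were assigned to 26 genes with TNFa, 30 with BMP4, 28 with both and 29 in untreated cells, and 25 genes were in every list. The count of genes depends on the authors' threshold of an adjusted p of 0.05 over background. At 0.001 it was 17 with TNFa, 16 with BMP4, 19 with both and 20 in untreated cells. Promoter windows made up 24.3% of the patterning windows with TNFa, 22% with BMP4, 22.2% with both and 23.5% in untreated cells. Among all windows of each list they made up 35% with TNFa, 31.8% with BMP4, 34.4% with both and 32% in untreated cells.

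**Figure D1:**
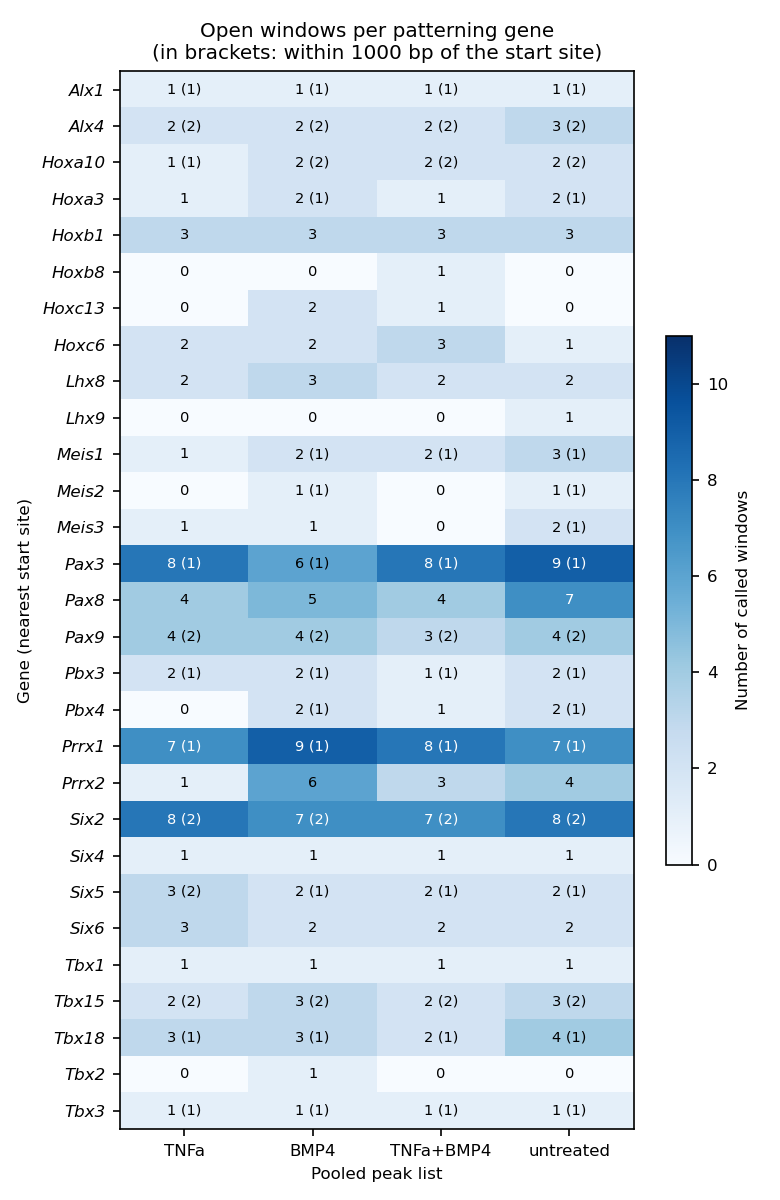
Number of 125 bp windows assigned to each of 29 patterning genes (rows) in the pooled list of each group (columns), with the number within 1000 bp of the start site in brackets. Pax3, Prrx1 and Six2 carry 6 to 9 windows in every list, while Hoxb8, Lhx9 and Tbx2 have a single window in 1 list each.

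Among the Hox windows found in all 4 lists, the most accessible was at Hoxb1, which specifies a hindbrain segment. All 3 windows of this gene were intergenic, 42175 to 48035 bp from its start, so their assignment rests on distance alone. The farthest (chr11:96413731-96413855) held 137 and 86 CPM (scaled counts-per-million of the tags in tested windows) with TNFa and 92.7 and 161 with BMP4. It held 138 and 154 CPM with both factors and 84.6 and 113 in untreated cells. Both libraries of the combined treatment lay above both untreated libraries, as in 16.8% of all tested windows. The other groups overlapped the untreated range. The coordinates are those of the untreated list. The called window started at 96413749 with TNFa and at 96413783 with BMP4 and with both, so these levels cover shifted stretches. Hoxa10, a gene of the lumbar skeleton and uterus, had an intronic window 701 bp past its start in every list but BMP4's, where the called window was shifted to 806 bp. Its tags were few, at 18 and 3 with TNFa, 20 and 12 with BMP4, 29 and 17 with both and 25 and 11 in untreated cells. Hoxa3, a gene of the pharyngeal arches, had 1 shared window of 15.6 CPM in an intron of a noncoding transcript, and a promoter window in the BMP4 and untreated lists only. Hoxc6, a thoracic Hox gene, had no window present in all 4 lists.

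Of the Hox cofactors, Pbx3 had a promoter window (chr2:34372715-34372839, 732 bp upstream) in every list. It held 99.5 and 49 CPM with TNFa, 109 and 47.7 with BMP4, 103 and 74.7 with both and 75.4 and 33.7 in untreated cells. Replicate 1 was the higher in every group, and the groups overlapped. Within each replicate number the treated libraries were above the untreated one, a pattern noticed after the values were seen. In the BMP4 list this Pbx3 window started at 34372757, against 34372715 in untreated cells. Meis1 had a window 1501 bp upstream in every list, at 34.3 and 31.1 CPM with TNFa, 43.5 and 12.7 with BMP4, 29.6 and 31.7 with both and 36.9 and 21.3 in untreated cells, with overlapping groups. Its promoter window was called in every list but the TNFa one. The Meis2 promoter window was in the BMP4 and untreated lists, and that of Meis3 in the untreated list, at 34 and 45 tags. Pbx2 had no window.

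Prrx1 and Prrx2, which together are needed for limb and skull bones in mice, had 21 regions between them. The Prrx1 window 104227 bp past its start (chr1:163209361-163209485, intergenic) was the most accessible distal patterning window. It held 264 and 233 CPM with TNFa, 215 and 137 with BMP4, 255 and 285 with both and 279 and 197 in untreated cells, and it lay above 97.2% of all tested windows. Both libraries of the combined treatment were above both BMP4 libraries, as in 11.7% of all tested windows. No treated group was separate from the untreated one. The Prrx1 promoter window held 80.7 and 76.5 CPM with TNFa, 105 and 67.4 with BMP4, 93 and 52.1 with both and 57.8 and 66 in untreated cells. The TNFa and the BMP4 libraries were each above the untreated pair there, as in 8.88% of all tested windows with TNFa and 8.32% with BMP4. The called window started at 163313555 in untreated cells, 163313575 with TNFa and 163313600 with BMP4, so the stretches were shifted.

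Alx1 and Alx4 act in the frontonasal skeleton and the parietal bones. The Alx1 window at its start (chr10:103028669-103028793) held 112 and 98 CPM with TNFa, 92.7 and 111 with BMP4, 60.6 and 121 with both and 135 and 159 in untreated cells. All 6 treated libraries were below both untreated ones, a pattern noticed after the values were seen. Taken singly, the TNFa group was wholly below the untreated pair in 10.5% of all tested windows. The BMP4 group was so in 8.68% and the combined treatment in 16.5%, and the joint pattern was not tested. In the BMP4 list this Alx1 window started at 103028700, against 103028669 in untreated cells, so its level covers a shifted stretch. Alx4 had a 5′ UTR window of 40 CPM and a promoter window of 34.9 CPM on average.

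Six2 had the most windows of its family, 7 or 8 in each list. It is known from kidney progenitors and the skull base. Its window 889 bp upstream (chr17:85689081-85689205) held 94.4 and 99.2 CPM with TNFa, 163 and 73.1 with BMP4, 114 and 91.7 with both and 91.3 and 79.2 in untreated cells. The called window nearest the start held 105 and 231 tags with TNFa, 130 and 577 with BMP4, 91 and 150 with both and 144 and 513 in untreated cells. It lay 262 to 290 bp upstream in the treated groups, mostly outside the sequence printed above, and 174 bp upstream in untreated cells. With less than 63 bp of overlap it was not among the windows compared. Replicate 2 held more tags than replicate 1 in each group, and the shift itself was not tested. Six5 had a promoter window of 71 CPM. Six4 had an intronic window and Six6 a pair of intergenic ones in all lists, and Six3 had none.

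Pax genes supplied 22 regions, at Pax3, Pax8 and Pax9 only. Pax9, a gene of teeth and the vertebral column, had a first-intron window (chr12:56695862-56695986, 453 bp past its start) of 148 and 111 CPM with TNFa, 109 and 13.3 with BMP4, 133 and 139 with both and 132 and 16.9 in untreated cells. Replicate 2 of the BMP4 and of the untreated group was low there, and these are the libraries with r = 0.953. Pax8, best known from the thyroid and kidney, had a window 87426 bp upstream at 113 and 158 CPM with TNFa, 45.8 and 67.4 with BMP4, 53.6 and 120 with both and 150 and 89.5 in untreated cells. Both BMP4 libraries were below both untreated ones, as in 8.68% of all tested windows. Pax3, a gene of the neural crest and muscle precursors, had 6 windows in all 4 lists, from 16 CPM at 139042 bp to 64.9 CPM in an intron at 7554 bp.

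Of the LIM-homeobox genes, Lhx8, which acts in tooth and palate mesenchyme, had a pair of shared windows, 177565 and 177961 bp past its start. They lie in an intron of another transcript, so the assignment to Lhx8 is by nearest start only. Lhx9 had 1 window, in the untreated list.

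The T-box gene Tbx3, known for its part in the ulnar side of the limb and the mammary gland, carried the most accessible window of the set. It lies in its promoter (chr5:119670657-119670781, 143 bp upstream) and had identical coordinates in all lists. It held 290 and 345 CPM with TNFa, 196 and 268 with BMP4, 220 and 354 with both and 295 and 288 in untreated cells, above 98.5% of tested windows on average. Both BMP4 libraries lay below the untreated ones, as in 8.68% of all tested windows, and the other groups overlapped the untreated ones. Tbx15 is a gene for limb, vertebral and head bones. Its promoter window 78 bp upstream held 103 and 33.5 CPM with TNFa, 168 and 24.2 with BMP4, 175 and 60 with both and 65.3 and 17.6 in untreated cells. Replicate 1 was higher in every group there, and the groups overlapped. As at Pbx3, each treated library was above the untreated one of its number, and with the replicate number as a block neither window passed limma's adjusted p of 0.05. The pattern did not hold at the other shared Tbx15 promoter window, 475 bp upstream. There BMP4 replicate 2 held 23.5 CPM against 26.4 in untreated replicate 2, while the other treated libraries were above. Tbx18, a gene of the somites and the urinary tract, had a promoter window of 25.7 and 35.8 CPM with TNFa, 26.3 and 29.2 with BMP4, 18.3 and 44.2 with both and 27.6 and 33.7 in untreated cells, with overlapping groups. Tbx2 had 1 window, in the BMP4 list, and Tbx4 and Tbx5, the hindlimb and forelimb T-box genes, had none.

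**Figure D2:**
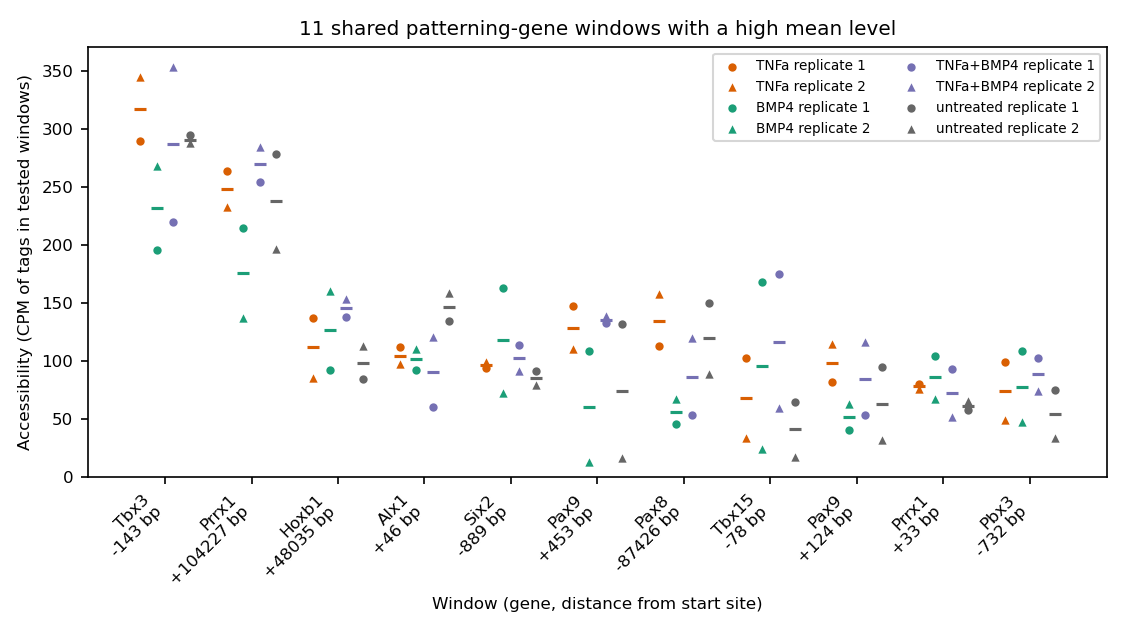
Accessibility (vertical axis, CPM of tags in tested windows) of 11 shared patterning windows with a high mean (horizontal axis, gene and distance from the start site); circles are replicate 1, triangles replicate 2 and dashes the mean of 2 libraries. Tbx3 (282 CPM on average) and the distal Prrx1 window (233 CPM) stand above the rest, and the replicates of Pax9 at 453 bp and of Tbx15 lie far apart.

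Promoter windows of the set were the more accessible. The 16 shared windows within 1000 bp of a start had a median of 74.4 CPM and the 29 farther ones 33.7 CPM. Over all tested windows these medians were 58.7 and 41.3 CPM. All 45 shared patterning windows passed the minimum on counts.

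Of 119 patterning regions, 45 (37.8%, 95% Wilson interval 29.6 to 46.8, counting error only) were in all 4 lists, beside 42.5% of 35534 regions in all. The other 74 were missing from at least 1 list, and 34 of them had a window of a missing list within 500 bp, so a nearby call existed in that list. With windows within 500 bp joined, 50.6% of patterning regions and 53.4% of all regions were in every list. In a single list were 8 regions with TNFa (6.72%, beside 4.32% of all regions), 12 with BMP4 (10.1%, beside 5.83%), 6 with both (5.04%, beside 6.26%) and 14 in untreated cells (11.8%, beside 7.92%). Missing were 49 regions from the TNFa list (41.2%, beside 34.5% of all regions), 37 from the BMP4 list (31.1%, beside 31%), 47 from the TNFa+BMP4 list (39.5%, beside 33.2%) and 34 from the untreated list (28.6%, beside 26.2%). With windows within 500 bp joined, the shares in a single list were 2.3% with TNFa (beside 2.23% of all regions) and 4.6% with BMP4 (beside 3.9%). They were 3.45% with both (beside 3.7%) and 11.5% in untreated cells (beside 6.91%). These shares are descriptions, and nothing particular to the patterning regions was tested.

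Regions found in both lists with TNFa only numbered 3 (2.52%, beside 4.18% of all regions). One was in an intron of Pax3 at 7883 bp, with 33 and 24 tags with TNFa and 31 and 47 with both, and it had a window of the other lists within 500 bp. The others lay 3965 and 3576 bp upstream of Hoxc6. At 3965 bp there were 29 and 10 tags with TNFa and 41 and 16 with both, against 14 and 14 background tags under the TNFa window. The background libraries were deeper, with 49.5 and 55.9 M tags in total.

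Regions found in both lists without TNFa only numbered 7 (5.88%, beside 7.36% of all regions), and 2 of them were in the first intron of Prrx2. At 19299 bp the tags were 139 and 63 with BMP4 and 55 and 16 in untreated cells, and at 25650 bp they were 28 and 126 with BMP4 and 18 and 73 in untreated cells. The first of these had windows of both other lists within 500 bp and the second had none. The Pbx4 promoter window printed above was another, with 6 and 92 tags with BMP4 and 17 and 102 in untreated cells. Replicate 1 was low there in both groups. The gene Prrx2 had 1 window with TNFa, 6 with BMP4, 3 with both and 4 in untreated cells, the widest spread of counts among the 32 genes. Its intronic window near 19700 bp, singled out after its values were seen, held 147 and 235 tags with BMP4, 78 and 80 with both and 92 and 66 in untreated cells. The TNFa list had a shifted window at 19861 bp with 13 and 40 tags. Since lists were called separately and at different depths, these counts carry no test.

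Regions found in both lists with BMP4 only numbered 2 (1.68%, beside 2.57% of all regions). In the first intron of Prrx2, at 5448 bp, there were 59 and 14 tags with BMP4 and 37 and 15 with both. The other was 81277 bp upstream of Hoxc13, a gene of hair and nails, with 29 and 30 tags with BMP4 and 20 and 17 with both. A neighbouring window at 80874 bp, in the BMP4 list only, had 121 tags in replicate 1 and 5 in replicate 2. The single region in both lists without BMP4 only (0.84%, beside 2.84% of all regions) was upstream of Pax3, and the TNFa+BMP4 list had a window within 500 bp of it.

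**Figure D3:**
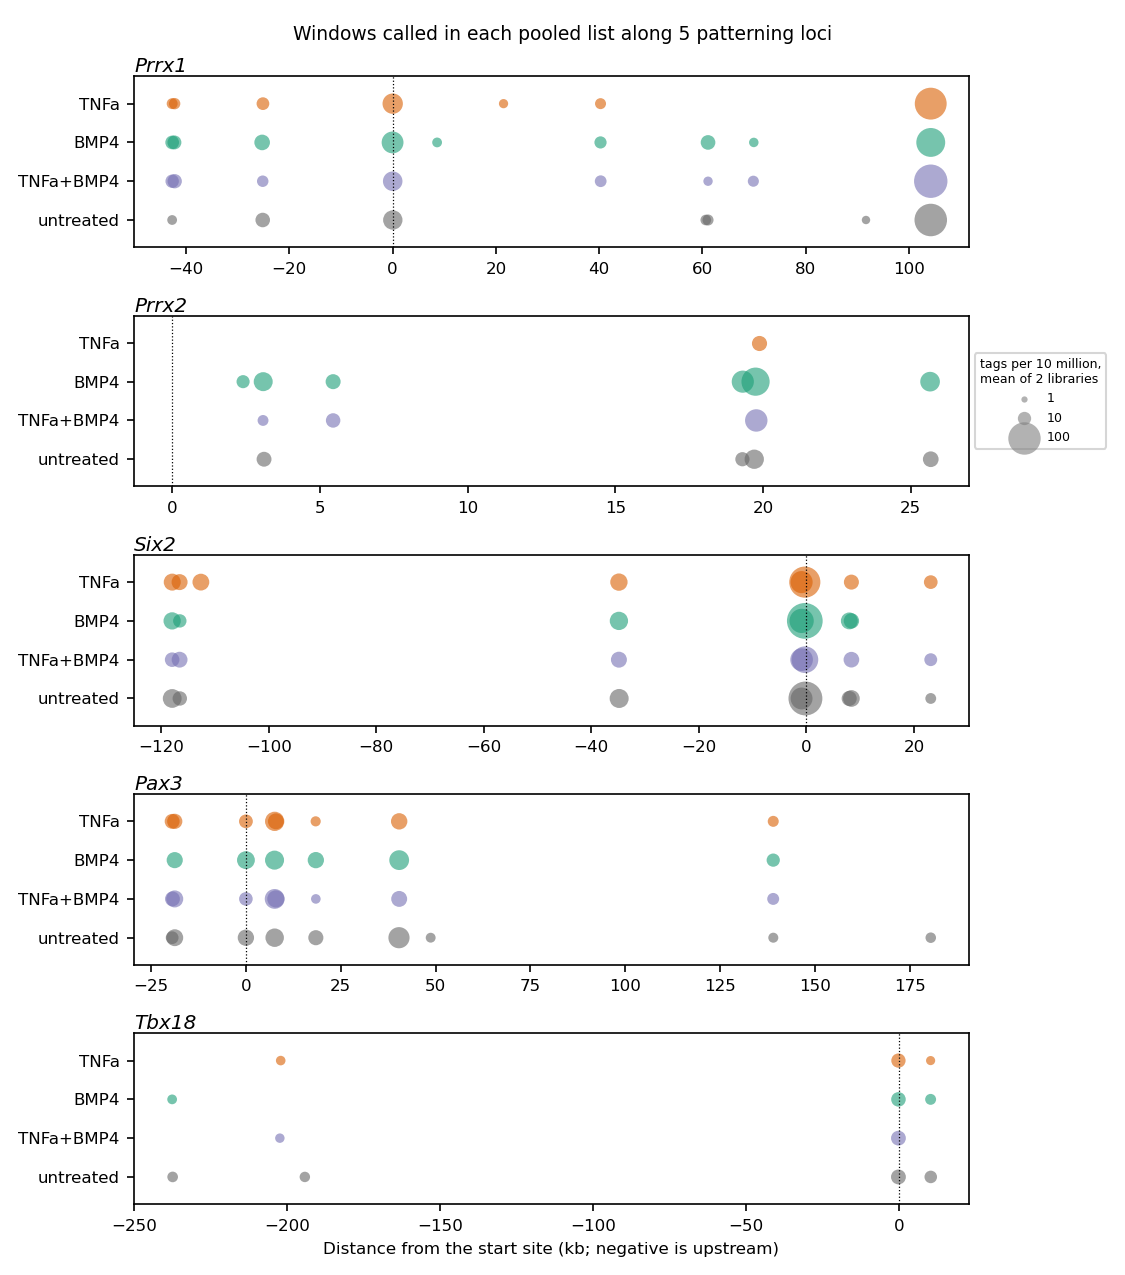
Windows called in the pooled list of each group (rows) along Prrx1, Prrx2, Six2, Pax3 and Tbx18, by distance from the start site in kb (horizontal axis, dotted line at the start); the area of a point grows with its depth-scaled tags, as the mean of 2 libraries. Prrx2 has 1 window with TNFa and 6 with BMP4, whereas the start region of Prrx1, Six2, Pax3 and Tbx18 has a window in every list.

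Whether TNFa or BMP4 moved accessibility was tested in the 45 patterning windows shared by all lists, within a fit over all 14416 shared windows. Sites missing from any list are outside this test. With limma and Benjamini-Hochberg adjustment, 0 of 45 patterning windows passed an adjusted p of 0.05 in any of 8 comparisons, and 0 of 14416 windows (0%) did. At an unadjusted limma p under 0.05 there was 1 of 45 patterning windows for BMP4 across both TNFa states, beside 157 of 14416 windows. For both factors against no treatment it was 1 of 45, the same Prrx1 window, beside 358 of 14416. Over all windows that count ran from 0 for the interaction to 629 for TNFa across both BMP4 states. The replicates limit this test. They differed by over 2-fold in 35.6% of the patterning windows with TNFa, 55.6% with BMP4, 22.2% with both and 33.3% in untreated cells. Over all tested windows these shares were 32%, 50.8%, 25.4% and 37.3%.

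Against untreated cells, the median log2 fold change of the 45 windows was 0.15 with TNFa (27 above 0), -0.13 with BMP4 (21 above 0) and 0.17 with both (26 above 0). Over all tested windows these medians were -0.00, 0.01 and -0.01. These comparisons share the untreated libraries. Without untreated replicate 2 the medians with TNFa and with both were -0.13 and -0.11, so their sign rests on that library. The median was -0.02 for both factors against TNFa and 0.08 for both against BMP4. For the interaction of the factors it was 0.13, against 0.02 over all windows. A further 54 patterning genes have names that the set leaves out (Dlx, Irx, Twist, the T-box genes T and Eomes, and others), and 33 had a window. Their 58 tested windows had medians against untreated cells of 0.12 (TNFa), -0.02 (BMP4) and 0.05 (both), and 0 of these windows were called.

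Across both BMP4 states, TNFa gave the highest estimate at the first-intron window of Pax9, whose levels are given above, with a log2 fold change of 1.55 ± 0.77 (SE; limma, Benjamini-Hochberg adjusted p = 0.853). With the replicate number as a block, its limma adjusted p was 0.117, the lowest over the alternatives, which ran up to 1. That block fit called 119 of 14416 windows (0.825%) for TNFa across both BMP4 states, with 0 patterning windows among them. Against untreated cells alone the Pax9 value was 1.37 ± 1.09, and it was -0.06 without untreated replicate 2. The Alx4 window at 151 bp had 65.2 and 31.1 CPM with TNFa, 57.2 and 10.8 with BMP4, 56.4 and 53.2 with both and 37.7 and 8.07 in untreated cells. Its TNFa estimate was 1.14 ± 0.63 (limma, Benjamini-Hochberg adjusted p = 0.853). The called Alx4 window started at 93642494 in the treated groups and at 93642523 in untreated cells, so these levels cover shifted stretches. Downward, the lowest p was at a Pax3 intron window, 18410 bp from the start, at 5.15 and 17.9 CPM with TNFa, 6.87 and 56.6 with BMP4, 8.46 and 11.3 with both and 18.4 and 44 in untreated cells. Its log2 fold change was -1.15 ± 0.65 (limma, Benjamini-Hochberg adjusted p = 0.853). This Pax3 window started at 78178709 with TNFa, against 78178664 in the other groups, so its TNFa level covers a shifted stretch.

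The distal Six2 window 116549 bp upstream (chr17:85804741-85804865, intergenic) was the one patterning window where all 4 libraries with TNFa lay above all 4 without it. It held 39.5 and 44.2 CPM with TNFa and 31 and 46.4 with both, against 18.3 and 25.4 with BMP4 and 26 and 30.8 in untreated cells. The called window started at 85804783 with TNFa and 85804781 with both, against 85804741 with BMP4 and in untreated cells. Tags were thus counted over stretches shifted along with TNFa, and the separation cannot be told apart from that shift. This is 1 of 45 windows (2.22%), beside 1.82% of all tested windows that were separate in the same direction. The log2 fold change for TNFa was 0.64 ± 0.35 (limma, Benjamini-Hochberg adjusted p = 0.853). In the other direction 0 of 45 were separate, beside 2.62% of all windows.

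For BMP4 across both TNFa states, the lowest p was at a Prrx1 window 42706 bp upstream. It held 24 and 24.2 CPM with BMP4 and 38.1 and 17 with both, against 17.2 and 13.1 with TNFa and 8.38 and 11 in untreated cells. The lowest library with BMP4 was just under the highest one without it. No patterning window was separate for BMP4 in either direction, beside 0.777% of all windows upward and 0.853% downward. The log2 fold change was 0.93 ± 0.37 with an unadjusted p of 0.0368 (limma, Benjamini-Hochberg adjusted p = 1). A Hoxb1 window at 42175 bp followed with 0.83 ± 0.46. Downward, the Pax8 window 87426 bp upstream was at -0.88 ± 0.43 and an intergenic Six6 window, near a gene of the eye and pituitary, at -0.76 ± 0.38, both at a limma adjusted p of 1.

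Windows whose groups did not overlap were counted for each pair, in the set and among all tested windows. With both factors against no treatment, 9 of 45 patterning windows lay wholly above (20%, beside 16.8% of all windows) and 10 wholly below (22.2%, beside 16.5%). With BMP4 against no treatment 5 were above (11.1%, beside 8.32%) and 9 below (20%, beside 8.68%), and Tbx3, Alx1 and a pair of Six2 windows were below. With TNFa against no treatment 5 were above (11.1%, beside 8.88%) and 6 below (13.3%, beside 10.5%). For both factors against TNFa it was 1 above (2.22%, beside 8.38%) and 0 below (beside 8.93%), and for both against BMP4 it was 5 above (11.1%, beside 11.7%) and 1 below (2.22%, beside 13.5%). None of these counts was tested.

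**Figure D4:**
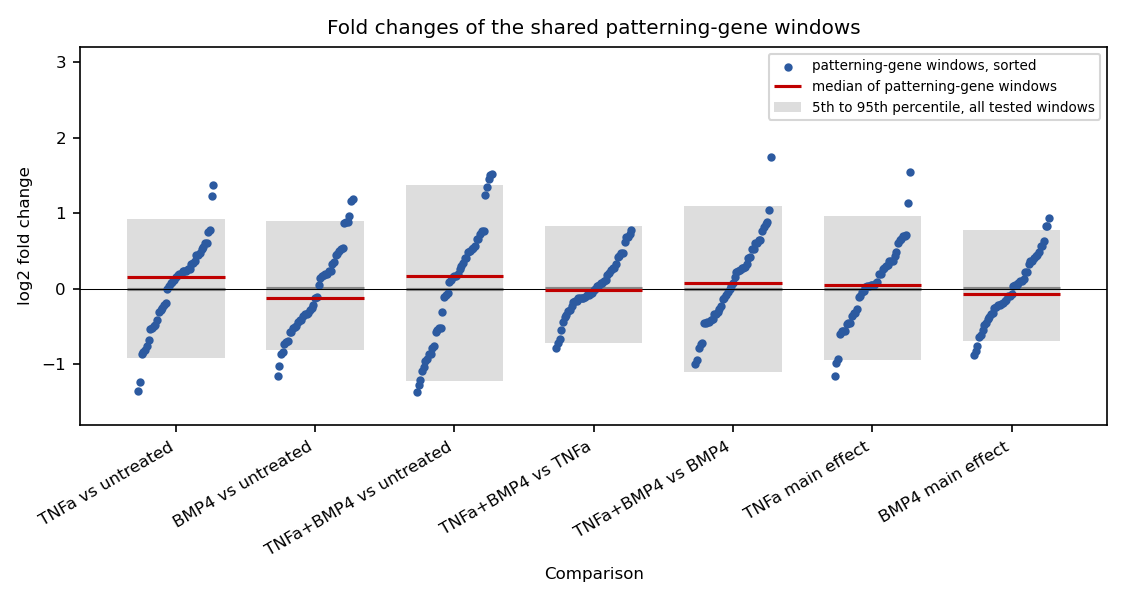
Log2 fold change (vertical axis) of the 45 shared patterning windows (points, sorted within each comparison) in 7 comparisons (horizontal axis); the red line is their median, and the grey bar spans the 5th to 95th percentile of all 14416 tested windows. The medians run from -0.13 to 0.17 and no point passed the adjusted threshold.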

How the data were processed

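Per the submitters' processing notes, the tools were HOMER 4.11, deepTools 3.5.1, Picard 2.25.1, Bowtie2 2.5.1 and Trimmomatic 0.39, on mm10. No source used here says whether cut sites were corrected for the offset of the transposase. The authors pooled the replicates of a group and called 125 bp windows over the background libraries, per the file headers, at an adjusted p-value under 0.05. The deposited lists give a position, the nearest gene and its annotation, a log2 fold change over background with its p-value, and values per library. The headers name these tag counts. What the authors deposited there are regularised log2 values (rlog of DESeq2), fitted within each list. The peak score in the deposited lists was not used.

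That regularisation was inverted to recover whole tags, with 4 fitted constants per list. Within 0.1 of a whole number came out 99.99% of values with TNFa, 99.30% with BMP4, 100.00% with both and 99.94% untreated, and with constants moved by 5% only 16.5% to 19.1% did. Windows overlapping by at least 63 bp were matched across lists (14471, 2914 of them identical, median shift 8 bp). Each group's tags come from the window of its own list. Coordinates and distances printed for a shared window are those of the untreated list. A minimum of 10 depth-scaled tags in 2 or more libraries, and of 15 tags in total, left 14416 for testing. Scaling used trimmed means of M-values (TMM). The test was limma 3.58.1 (R 4.3.3) with a mean-variance trend on log2(scaled tags + 2), over all 8 libraries and with no covariate beside group. It is two-sided, with Benjamini-Hochberg adjustment over all tested windows. Fold changes on this scale understate the change of low windows. Main effects are means of the 2 single contrasts. The tag recovery and the limma fit were also run on simulated counts. In the simulation for limma, replicates differed only by depth and random spread, without a pattern shared by replicate number. It therefore does not show how the fit performs on these libraries.

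The labels number replicates 1 and 2 in each group without saying what the number marks. The differences of replicate 2 minus replicate 1 correlated between groups at r = 0.11 to 0.76 over the 6 pairs of groups, so a fit with the replicate number as a block was run beside the main one.

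Members, lists and tests were chosen with earlier results of these data known. Windows named are the 12 with the highest mean, those with the smallest p per direction and comparison (3 for main effects, 2 for pairs), regions in some lists only with the most tags (3 per pattern), and the gene of each family with most untreated windows. Some windows and genes that this rule names are not reported here, though they stay in the counts and fits. Promoters come from the RefSeq promoter table, which held 60 of the 92 genes. The window of a gene is the one the lists assign by nearest start site.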

Additional observations from a re-analysis of the deposited data

How the results depend on the processing

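In 18 alternative fits (scaling, pseudocount, filters, stricter matching, the replicate block and each library left out), 0 patterning windows passed an adjusted p of 0.05, the lowest limma adjusted p being 0.117 with the replicate block. The block called 119 of 14416 windows for TNFa across both BMP4 states, against 0 without it, and changed no other count of calls. Scaling by total tags moved the median of all windows by -0.15 for TNFa against untreated cells. The patterning median was then -0.00 there, and -0.07 for both factors against BMP4. That last median was 0.23 at a mean tag count of at least 30. Over the 6 patterning windows with identical coordinates the median for BMP4 against untreated cells was -0.33. Leaving out each library in turn gave patterning medians of -0.13 to 0.28 for TNFa against untreated cells, -0.29 to -0.09 for BMP4, -0.11 to 0.22 for both, -0.13 to 0.09 for BMP4 across TNFa states and -0.04 to 0.23 for the interaction. The lowest values of the first 3 were without untreated replicate 2, while 0.09 for BMP4 across TNFa states and -0.04 for the interaction were without untreated replicate 1. With single libraries left out, the Pax9 window at 453 bp ran from -0.06 (without untreated replicate 2) to 2.81 for TNFa against untreated cells. The Pax3 window 18792 bp upstream ran from -0.19 (without TNFa replicate 2) to 1.11 for both factors against TNFa. The cause of these changes was not tested.

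The share of patterning regions in all 4 lists was 15.7% at 90% overlap, 50.6% with windows within 500 bp joined and 29.3% at the stricter threshold of 0.001 over background. For all regions it was 47.9% at 1 bp of overlap, 18.8% at 90%, 53.4% joined and 31.4% at 0.001. At 0.001, 17 patterning genes had a window with TNFa and 16 with BMP4, against 26 and 30 as deposited. Counts of regions in single lists moved with several of these settings.

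With 2 libraries per group, depth that differs between groups and lists called on pooled replicates, a window missing from a list cannot be told apart from one under the threshold. Nearest-gene assignment is by distance, and no expression was measured here.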
